A study of Mus musculus with 36 samples.

Results

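The 10 genes described here are listed as macrophage identity and lipid-handling genes: Marco, Pparg, Car4, Cd68, Spp1, Gpnmb, Trem2, Lgals3, Plin2 and Atp6v0d2. They were followed in lung RNA from mice given crude oil, oil dispersants or both. They were taken by symbol from the female and the male count table, each gene was found once in both, and they are 10 of the 17716 gene names that the tables share. The mice were wild-type C57BL/6, 8 weeks old at the first dose, with 18 females and 18 males in 6 groups of 3 per sex. The groups received saline, oil, the dispersant Corexit 9500, the dispersant Corexit 9527, 9500+oil or 9527+oil on days 0, 7 and 13, at a concentration of 0.1 WAF, the water-accommodated fraction, and the lung was taken on day 14. The labels name the tissue only as lung, and per the study's methods it was the left lung. The series' design text gives the route as intratracheal instillation, and the methods give oropharyngeal aspiration of a saline-accommodated fraction. Females and males were treated and tabulated separately, so sex and experiment cannot be told apart. Nothing in the labels marks a group as a genetic model, and every mouse is 1 library.

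Marco is a scavenger receptor with which alveolar macrophages bind particles and bacteria, and Cd68 is a lysosomal glycoprotein found in macrophages of most tissues. Pparg is the nuclear receptor that sets the alveolar macrophage programme for surfactant lipid, and Plin2 coats the lipid droplets in which such cells store it. Spp1 (osteopontin), Gpnmb, Trem2 (a lipid-sensing receptor) and Lgals3 (galectin-3) are raised in macrophages that have taken up lipid or debris in several tissues, and Atp6v0d2 is a subunit of the lysosomal proton pump, the V-ATPase, with restricted expression in macrophages and osteoclasts. Car4 is a carbonic anhydrase found on a class of lung capillary endothelium, and it is listed here as a macrophage gene as well.

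Levels are counts per 1000000 counts (CPM) with library sizes scaled by the TMM method within each table. The libraries held between 17501180 and 30011557 estimated counts. Alveolar type 2 cell, airway and endothelial transcripts were abundant in every library, with Sftpc at 3564 to 16393 CPM, Scgb1a1 at 6178 to 24591 CPM and Pecam1 at 731 to 1362 CPM over both sexes. The alveolar macrophage markers Siglecf (6.52 to 52.3 CPM) and Itgax (35.0 to 173.6 CPM) were detected in all 36. Since these are bulk libraries, more macrophages and more RNA of a gene per macrophage cannot be told apart in any value that follows. In 4 female libraries, 1 each of saline, oil, 9527 and 9500+oil, genes of the mitochondrial genome took 20.7% to 45.1% of the counts, against 6.16% to 11.3% in the other 14 female and 5.27% to 7.68% in the 18 male libraries. Several of the 10 genes moved with that share, so the fits that include female mice were also run without these 4 libraries.

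Of the 10 genes, 9 had an entry in the RefSeq promoter table on the GRCm38 mouse build, the build of the submitters' processing notes, and Atp6v0d2 had none. The 250 bases before the transcription start are shown for Spp1 and Cd68, the pair called together in the male 9527 lungs, and for Marco, whose fold change was the largest of the 10 in male mice given oil. Each is read 5′ to 3′ on the strand of its gene, and capitals mark matches to the motifs searched. Spp1 lies at chr5:104434861-104435110 on the plus strand, Cd68 at chr11:69666171-69666420 and Marco at chr1:120505025-120505274, both on the minus strand.
Spp1: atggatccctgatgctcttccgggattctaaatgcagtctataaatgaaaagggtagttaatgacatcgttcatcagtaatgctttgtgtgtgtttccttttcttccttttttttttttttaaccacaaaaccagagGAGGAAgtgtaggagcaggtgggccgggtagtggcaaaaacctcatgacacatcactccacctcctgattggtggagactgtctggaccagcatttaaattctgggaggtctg
Cd68: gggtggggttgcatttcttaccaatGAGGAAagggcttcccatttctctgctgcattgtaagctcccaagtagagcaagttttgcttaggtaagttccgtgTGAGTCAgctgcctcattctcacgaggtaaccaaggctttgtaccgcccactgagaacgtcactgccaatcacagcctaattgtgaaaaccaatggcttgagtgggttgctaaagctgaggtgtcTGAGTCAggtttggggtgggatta
Marco: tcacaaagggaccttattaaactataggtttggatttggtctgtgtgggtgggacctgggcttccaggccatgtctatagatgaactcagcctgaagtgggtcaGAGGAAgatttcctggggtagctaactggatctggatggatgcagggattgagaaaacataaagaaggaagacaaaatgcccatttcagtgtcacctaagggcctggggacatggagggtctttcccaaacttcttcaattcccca
The motifs, searched on both strands, were GAGGAA (the core of PU.1 sites, the macrophage lineage factor), TGAGTCA (AP-1), CACGTG (the E-box of MiT/TFE lysosomal factors) and AGGTCA (the nuclear receptor half-site). GAGGAA was found once in each of the 3 windows, with its first base 113 bases before the start in Spp1, 225 in Cd68 and 146 in Marco. Cd68 also held TGAGTCA at 2 places, beginning 149 and 24 bases before the start. Among all 32851 promoter windows of the same length, 23.3% held GAGGAA, 4.46% TGAGTCA, 6.02% CACGTG and 14.0% AGGTCA, so a PU.1 core in a window of this length was common. Neither CACGTG nor AGGTCA occurred in these windows. The second RefSeq start of Spp1, at chr5:104435942-104436191, held none of the 4 motifs. A match describes the letters only.

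In saline lungs the 10 genes spanned a wide range once CPM was divided by the annotated exon length. In male saline mice Car4 was highest at 84.7 ± 11.5 CPM per kilobase (SD, n = 3), followed by Cd68 at 67.7 ± 4.97, Lgals3 at 59.1 ± 10.5 and Plin2 at 34.3 ± 1.69 CPM per kilobase. Atp6v0d2 (17.8 ± 2.33), Spp1 (13.5 ± 1.33) and Marco (9.70 ± 3.70 CPM per kilobase) were intermediate. Pparg, Gpnmb and Trem2 were the lowest, at 2.98 ± 1.20, 2.17 ± 0.295 and 0.864 ± 0.367 CPM per kilobase. The neighbouring pairs Cd68 and Lgals3, Spp1 and Marco, and Pparg and Gpnmb differed by less than the sum of their SDs. The order was different in female saline mice, where Cd68 was highest at 96.3 ± 27.1 CPM per kilobase (SD, n = 3), before Car4 at 75.0 ± 13.0 and Atp6v0d2 at 48.8 ± 54.3, a group that holds the saline library over the limit. Spp1 (36.8 ± 12.3), Lgals3 (36.7 ± 14.8), Plin2 (20.9 ± 9.30) and Marco (16.9 ± 3.25 CPM per kilobase) followed. Pparg (3.77 ± 0.999), Gpnmb (1.52 ± 1.36) and Trem2 (0.531 ± 0.460 CPM per kilobase) were again the lowest. Without the library over the limit the female saline mean of Atp6v0d2 was 47.4 CPM rather than 132.6 CPM. Its place above Spp1 and Lgals3 rests on that library.

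**Figure D1:**
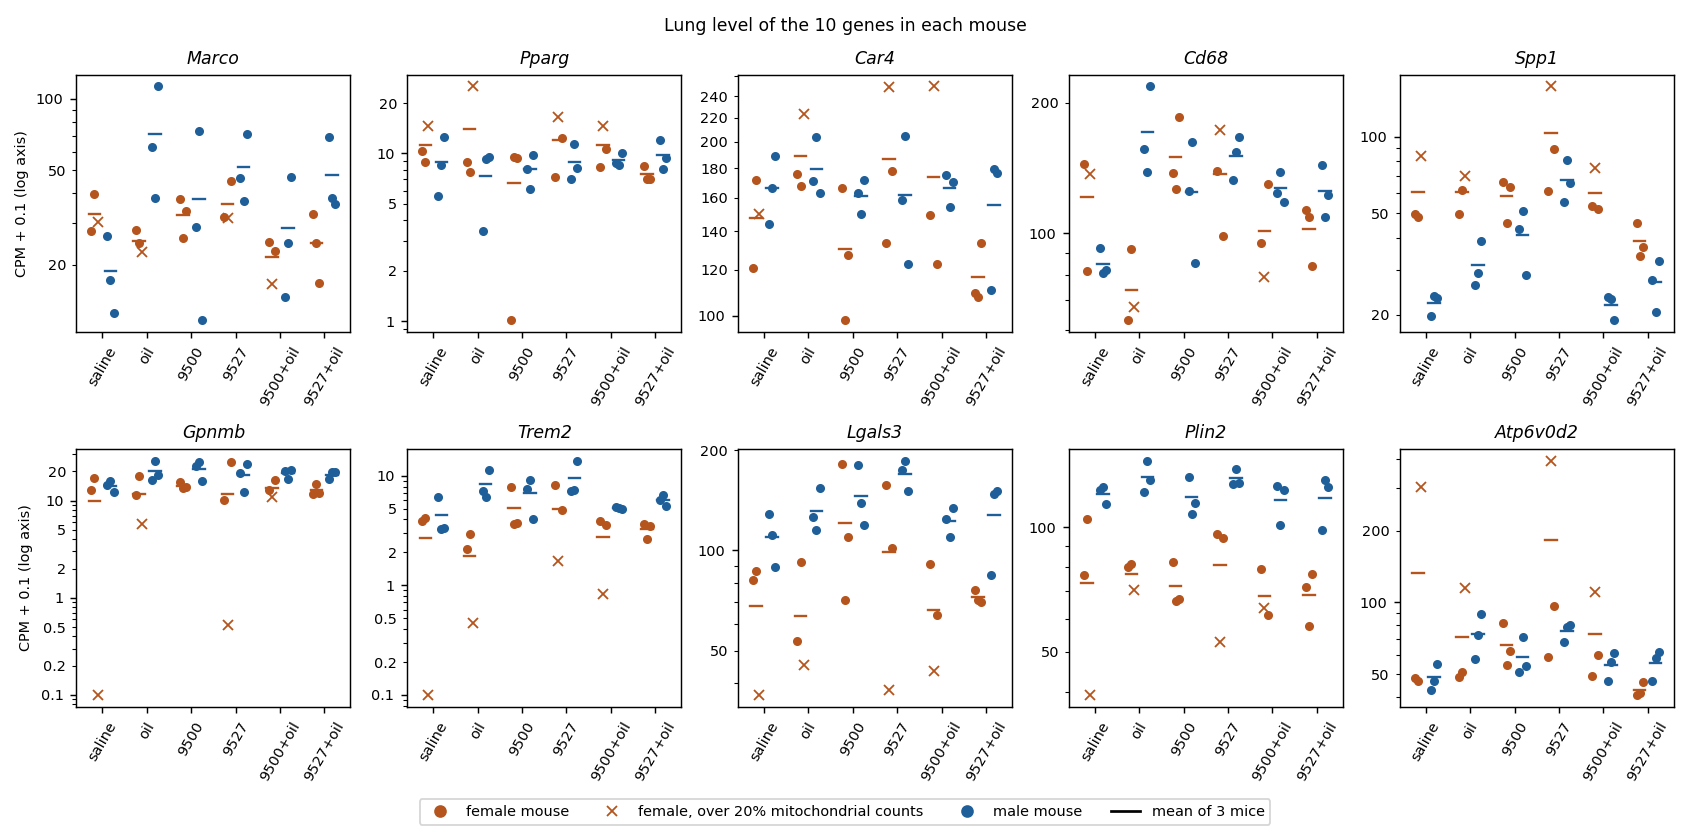
CPM plus 0.1 on a log axis for the 10 genes in all 36 mice, by treatment group, with females in orange, males in blue, the 4 female libraries over 20% mitochondrial counts as crosses and short bars at the mean of 3 mice. The male 9527 mice lie above every male saline mouse for Spp1, Cd68 and Marco, and the crosses lie apart from the other females for Trem2 and Atp6v0d2.

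In the main test, edgeR's, Corexit 9527 was the treatment under which members passed against saline, and they did so in male mice. Spp1 and Cd68 rose, and they were 2 of the 17 genes (0.114% of those tested) past an adjusted p of 0.05 in that comparison. All p-values named adjusted come from edgeR's quasi-likelihood test with Benjamini-Hochberg adjustment over every gene tested, here 14919. The calls depended on the test. DESeq2, which the study used for its gene-level analysis, called members in male mice under every treatment. It called 2 with oil, 1 with 9500, 5 with 9527, 1 with 9500+oil and 2 with 9527+oil.

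Spp1, the secreted phosphoprotein osteopontin, stood at 19.7, 23.7 and 23.2 CPM in the 3 male saline mice and at 55.3, 80.8 and 66.0 CPM in the 3 male 9527 mice. The groups did not overlap, and the lowest 9527 mouse lay well above the highest saline mouse. The group means were 22.2 ± 2.19 and 67.3 ± 12.8 CPM (SD, n = 3), a log2 fold change of 1.61 (SE 0.16, adjusted p = 0.0147). Among the 6 male groups 9527 was highest and its mice did not overlap with those of the next group, Corexit 9500, at 43.2, 50.9 and 28.4 CPM. Below it the group means ran from 40.8 CPM with 9500 through 31.3 with oil, 26.7 with 9527+oil and 22.2 with saline to 21.8 with 9500+oil, and each neighbouring pair in that order overlapped.

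Cd68 stood at 92.2, 80.8 and 82.2 CPM in male saline mice and at 132.6, 154.1 and 166.5 CPM in male 9527 mice. The groups did not overlap for Cd68, and the 9527 mice were spread more widely than the saline mice. Its means were 85.1 ± 6.25 and 151.1 ± 17.2 CPM (SD, n = 3), with a log2 fold change of 0.83 (SE 0.11, adjusted p = 0.0468). Both calls were lost when any 1 of the male saline mice 1, 2 or 3 was left out, where the number of members called was 0. The number was 1 without 9527 mouse 10 or 11, and the log2 fold changes themselves ran from 1.45 to 1.73 for Spp1 and from 0.77 to 0.92 for Cd68.

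Other members were higher in male 9527 mice without passing the adjusted test. Marco was at 26.4, 17.2 and 12.4 CPM in male saline mice and 46.4, 36.9 and 70.8 CPM in male 9527 mice, a log2 fold change of 1.46 (SE 0.31, adjusted p = 0.106). Atp6v0d2 was at 42.8, 46.9 and 55.3 CPM against 68.2, 78.5 and 80.4 CPM, a log2 fold change of 0.65 (SE 0.12, adjusted p = 0.0766). Lgals3 was at 128.3, 111.6 and 89.4 CPM against 174.0, 185.9 and 150.4 CPM, a log2 fold change of 0.63 (SE 0.15, adjusted p = 0.127). In all 3 genes the lowest 9527 mouse exceeded the highest saline mouse. Trem2, at 3.21 to 6.37 CPM in saline and 7.21 to 13.6 CPM in 9527 mice, had a log2 fold change of 1.13 (SE 0.36, adjusted p = 0.218). The remaining members differed little. Gpnmb had a log2 fold change of 0.38 (SE 0.23), Plin2 of 0.12 (SE 0.09), Car4 of -0.04 (SE 0.18) and Pparg of 0.00 (SE 0.31).

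Counted over the list, 6 of the 10 members were higher at an unadjusted p under 0.05 in male 9527 mice, where 7.96% of all genes were, and none was lower, where 5.78% of all genes were. Every 9527 mouse lay above every saline mouse for 7 members, against 10.5% of all genes. The median log2 fold change of the 10 was 0.64, and that of all genes was -0.01. The members were chosen with earlier results of these data known. These counts, and those given below for other comparisons, therefore describe the list and do not test it.

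Oil gave the highest male level of Marco and Cd68, though no member passed the adjusted test and 1 gene in the table did (0.00671%). Marco stood at 62.9, 38.0 and 113.1 CPM in male oil mice, a log2 fold change of 1.93 against saline (SE 0.40, adjusted p = 0.256). Cd68 stood at 156.4, 138.5 and 218.4 CPM, a log2 fold change of 1.00 (SE 0.16, adjusted p = 0.169). Mouse 6 of this group was the highest male mouse of all for both genes, and the other 2 oil mice still exceeded every saline mouse. Trem2 was at 7.13, 6.32 and 11.3 CPM with oil, a log2 fold change of 0.95 (SE 0.33, adjusted p = 0.491), and its lowest oil mouse fell within the saline range. Atp6v0d2 (0.60, SE 0.17), Spp1 (0.49, SE 0.16) and Gpnmb (0.49, SE 0.19) had smaller log2 fold changes. Of the 10 members 6 were higher at an unadjusted p under 0.05, where 5.75% of all genes were, and for 5 of them the groups did not overlap, where 7.44% of all genes did not. Pparg, at -0.28 (SE 0.41), was the single member with a lower level under oil.

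With the other 3 treatments no member passed the adjusted test in male mice. With Corexit 9500, Spp1 had a log2 fold change of 0.88 (SE 0.20, adjusted p = 0.617), Gpnmb of 0.59 (SE 0.18), Cd68 of 0.54 (SE 0.20) and Lgals3 of 0.41 (SE 0.17). These 4 were the members at an unadjusted p under 0.05, where 4.00% of all genes were higher, and Spp1 was the 1 member whose groups did not overlap, where 6.35% of all genes did not. Mouse 9 of the 9500 group stood nearer the saline mice than the other 2 did, at 11.6 CPM of Marco against 28.7 and 73.0 CPM, and at 85.1 CPM of Cd68 against 125.3 and 162.3 CPM. With 9500+oil, Cd68 (0.58, SE 0.10) and Gpnmb (0.43, SE 0.14) were higher at that level and did not overlap with saline, where 5.19% and 7.84% of all genes met those criteria. With 9527+oil the 3 such members were Marco (1.36, SE 0.33), Cd68 (0.55, SE 0.12) and Gpnmb (0.39, SE 0.14), against 3.54% and 5.73% of all genes. In the whole table the adjusted test was passed by 0.00662% of genes with 9500, 0% with 9500+oil and 0.00669% with 9527+oil.

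**Figure D2:**
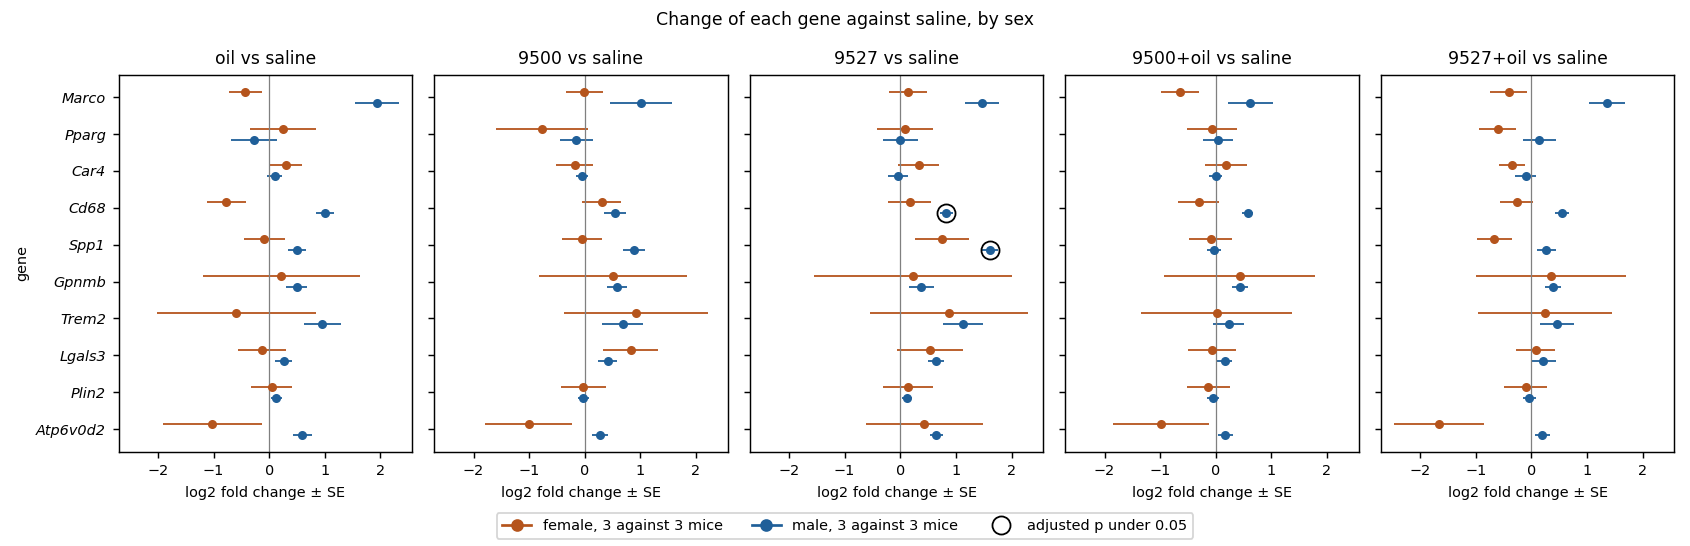
Log2 fold change with its SE for the 10 genes against saline under each treatment, with 3 against 3 mice per point, females in orange and males in blue, and a circle round points past an adjusted p of 0.05. Only Cd68 and Spp1 in male 9527 mice are circled, and the female error bars of Gpnmb and Trem2 are the widest.

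Across the male groups the order of the other members followed no single treatment. Cd68 ran from 171.1 ± 41.9 CPM with oil (SD, n = 3) through 151.1 with 9527, 126.9 with 9500+oil, 124.9 with 9527+oil and 124.2 with 9500 to 85.1 with saline, and every neighbouring pair overlapped. Marco ran from 71.3 ± 38.3 CPM with oil through 51.4 with 9527, 47.7 with 9527+oil, 37.7 with 9500 and 28.6 with 9500+oil to 18.7 ± 7.12 CPM with saline, again with overlap between neighbours. Saline was thus the lowest of the 6 groups for both, and also for Gpnmb, Trem2, Lgals3 and Atp6v0d2. All male comparisons with saline share the same 3 saline mice, so they are not independent of each other.

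Lgals3 and Atp6v0d2 were highest with 9527, at 170.1 ± 18.0 and 75.7 ± 6.56 CPM (SD, n = 3), next to 146.2 CPM of Lgals3 with 9500 and 73.3 CPM of Atp6v0d2 with oil. Trem2 was also highest with 9527, at 9.37 ± 3.67 CPM, where mouse 12 alone reached 13.6 CPM. Gpnmb, a lysosomal and cell-surface glycoprotein, was highest with 9500 at 21.2 ± 4.66 CPM, and all 5 treated groups had means of 18.3 to 21.2 CPM against 14.1 ± 1.92 CPM in saline. Plin2 had means of 116.4 to 131.9 CPM over the 6 groups and Car4 of 155.5 to 179.2 CPM. Pparg had means of 7.28 to 9.70 CPM. Saline lay inside that range for all 3 genes, which code for the droplet protein, the carbonic anhydrase and the nuclear receptor.

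In female mice no member passed the adjusted test under any treatment, and neither did any other gene (0% in each of the 5 comparisons). None of the 10 reached an unadjusted p under 0.05 either, and neither DESeq2 nor limma called one. All 10 had a positive log2 fold change with 9527, with a median of 0.28 against 0.03 over all genes, from 0.09 for Pparg to 0.88 for Trem2. Spp1 stood at 49.6, 48.4 and 84.1 CPM in female saline mice and 61.2, 158.0 and 89.8 CPM in female 9527 mice, where the third saline and the second 9527 value come from libraries over 20% mitochondrial counts. Without the libraries over that limit Spp1 had a log2 fold change of 0.63 (SE 0.22, adjusted p = 0.950), Lgals3 of 0.63 (SE 0.24) and Atp6v0d2 of 0.71 (SE 0.25), on 2 mice per group. Those 3 were then at an unadjusted p under 0.05, where 2.97% of all genes were higher, and 0% of genes passed the adjusted test.

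With 9527+oil 7 of the 10 members had a negative log2 fold change in female mice, with a median of -0.31 against 0.09 over all genes. Every 9527+oil mouse lay below every saline mouse for 3 members, Pparg (-0.60, SE 0.33), Spp1 (-0.67, SE 0.32) and Atp6v0d2 (-1.66, SE 0.81), where 7.05% of all genes did. One of those saline mice was the library over the limit. Without it all 10 members had a negative log2 fold change, from -0.44 to -0.14 with a median of -0.31. Spp1 was then at -0.34 (SE 0.14), the 1 member at an unadjusted p under 0.05, where 5.96% of all genes were lower and 0.0132% passed the adjusted test, while Pparg was at -0.35 (SE 0.17) and Atp6v0d2 at -0.14 (SE 0.10). Female medians were -0.11 with oil, -0.02 with 9500 and -0.08 with 9500+oil, where Marco (-0.65, SE 0.34) was the 1 member with every treated mouse below every saline mouse, against 0.710% of genes. Without the libraries over the limit those medians were -0.18, 0.10 and -0.07, so that with 9500 turned sign. Atp6v0d2 turned sign in all 3 comparisons, from -1.02 (SE 0.89) to 0.07 (SE 0.18) with oil, from -1.01 (SE 0.78) to 0.48 (SE 0.23) with 9500 and from -0.98 (SE 0.87) to 0.21 (SE 0.16) with 9500+oil. So did Spp1, from -0.09 to 0.19 with oil, -0.05 to 0.26 with 9500 and -0.09 to 0.11 with 9500+oil. Gpnmb turned the other way, from 0.22 to -0.03, 0.51 to -0.07 and 0.43 to -0.03 in the same order. None of the 10 was at an unadjusted p under 0.05 in those 3 comparisons without the libraries either.

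The 4 libraries over the limit carried the extremes of several members. Atp6v0d2 stood at 110.6 to 391.4 CPM in them, against 40.8 to 96.0 CPM in the other 14 female libraries. Pparg (14.4 to 25.1 against 0.91 to 12.3 CPM) was also above that range in all 4. Spp1 (69.8 to 158.0 against 33.8 to 89.8 CPM) and Car4 (149.6 to 249.5 against 98.0 to 178.1 CPM) overlapped with it. Trem2 (0 to 1.58 against 2.07 to 8.17 CPM) and Lgals3 (36.7 to 45.1 against 53.2 to 182.0 CPM) were below it in all 4, and Gpnmb ran from 0 to 10.9 CPM against 9.97 to 24.6 CPM. Plin2 ran from 39.2 to 70.4 CPM against 57.6 to 104.3 CPM. Cd68 lay within the range of the other females, and Marco overlapped with it at 16.5 to 31.5 against 16.7 to 45.1 CPM. The saline library of this kind had no count of Gpnmb or Trem2. Over 14374 genes the log2 ratio of these 4 libraries to the other females had a Pearson correlation with the GC content of the longest coding transcript of -0.66, a description across genes that share the same libraries. The 2 members with the lowest GC content, Atp6v0d2 (41.6%) and Spp1 (43.3%), had log2 ratios of 1.85 and 0.80, and that with the highest, Trem2 (57.5%), had -3.04. Gpnmb, at a GC content of 49.6%, had -3.46.

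**Figure D3:**
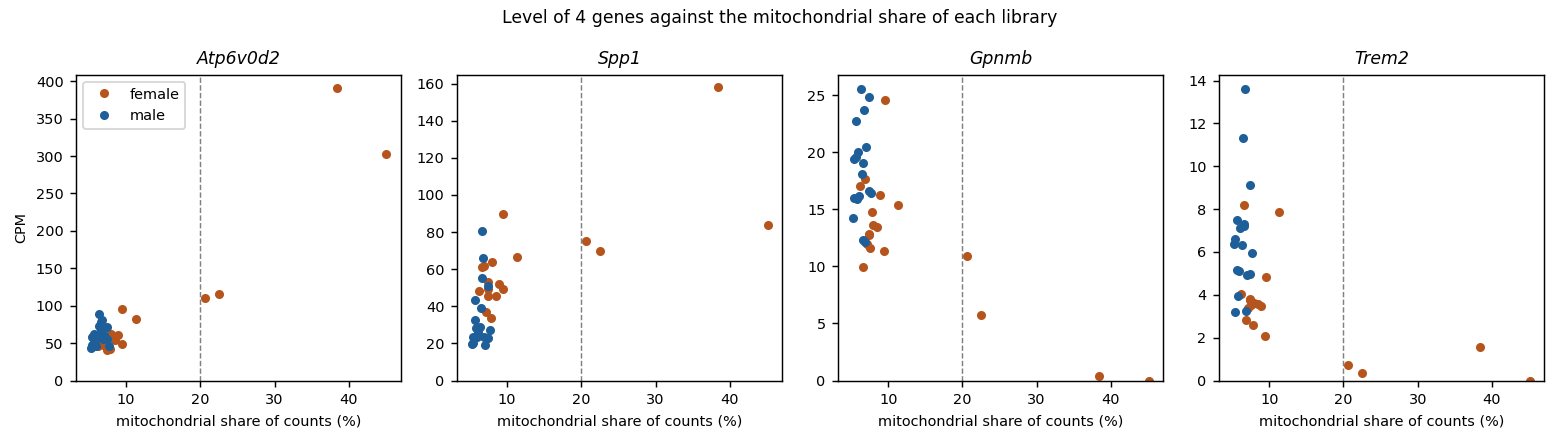
CPM of Atp6v0d2, Spp1, Gpnmb and Trem2 against the percentage of counts from mitochondrial genes in each of the 36 libraries, with females in orange, males in blue and a dashed line at 20%. The 4 female libraries right of the line reach 391.4 CPM for Atp6v0d2 and 0 CPM for Gpnmb and Trem2.

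For Pparg, 2 female libraries stood apart. The oil library over the limit was the highest at 25.1 CPM, and the adipocyte genes Fabp4 and Adipoq had their highest level there as well, 386.8 and 66.7 CPM. Female 9500 mouse 7 was the lowest at 0.91 CPM, where the other 2 mice of its group had 9.39 and 9.34 CPM. The part of fat in these values was not tested.

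Over both sexes, with sex as a term in the model and 6 mice per group, the 9527 contrast was positive for all 10 members. Spp1 had a log2 fold change of 1.18 (SE 0.28, adjusted p = 0.443), Marco of 0.80 (SE 0.31) and Cd68 of 0.50 (SE 0.21), and these 3 were at an unadjusted p under 0.05, where 2.27% of all genes were higher. None was among the 5 genes (0.0331%) past the adjusted test. An exact two-sided permutation of mean log2 CPM within sex gave p = 0.01 for Spp1, p = 0.025 for Marco and p = 0.04 for Cd68, where 400 arrangements allow no p below 0.005, and these are the members under 0.05 of 50 such tests, with no adjustment. For no member did every 9527 mouse exceed every saline mouse in both sexes, which 0.960% of genes did.

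Without the 2 libraries of these groups that were over the limit, the same contrast of 5 mice against 5 called 3 members: Spp1 at 1.21 (SE 0.20, adjusted p = 0.0113), Atp6v0d2 at 0.67 (SE 0.13, adjusted p = 0.0221) and Lgals3 at 0.63 (SE 0.13, adjusted p = 0.0325). They were among 343 genes past the test, 2.25% of those tested. The log2 fold change of Atp6v0d2 moved little, from 0.54 with all mice, and its SE fell from 0.54 to 0.13. Trem2 at 0.97 (SE 0.27, adjusted p = 0.0936), Marco at 0.95 (SE 0.30, adjusted p = 0.142) and Cd68 at 0.53 (SE 0.19, adjusted p = 0.192) did not pass. In the fits of the other 4 treatments over both sexes no gene passed with all mice (0% in each). There Lgals3 (0.62, SE 0.27) was the 1 member at an unadjusted p under 0.05 with 9500, where 1.29% of genes were higher. Without the library over the limit that member was joined by 3 others with 9500: Lgals3 was at 0.47 (SE 0.21), Spp1 at 0.60 (SE 0.18), Cd68 at 0.49 (SE 0.19) and Atp6v0d2 at 0.37 (SE 0.13), where 3.69% of genes were higher. With all mice Atp6v0d2 had the opposite sign there, at -0.37 (SE 0.46). With oil, where none was at that level with all mice, Marco was at 1.04 (SE 0.46), Spp1 at 0.38 (SE 0.13) and Atp6v0d2 at 0.39 (SE 0.14) without those libraries, where 1.69% of genes were higher. Atp6v0d2 again had the opposite sign with all mice, at -0.17 (SE 0.52). Its values also depended on those libraries with 9500+oil, at -0.33 (SE 0.46) with them and 0.19 (SE 0.10) without, and with 9527+oil, at -0.73 (SE 0.52) and 0.04 (SE 0.10). No gene passed the adjusted test in either fit (0% in both).

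The dispersants were compared directly at the same dilution and days. Corexit 9527 against 9500 gave Spp1 a log2 difference of 0.77 (SE 0.24, adjusted p = 0.794) and Atp6v0d2 one of 0.92 (SE 0.41, adjusted p = 0.794), the 2 members at an unadjusted p under 0.05, where 2.10% of genes were higher with 9527. The 95% interval of the Spp1 difference ran from 0.25 to 1.29 and that of Atp6v0d2 from 0.02 to 1.82. The other 8 members had intervals that included 0, such as -0.37 to 0.52 for Cd68, -0.72 to 0.65 for Lgals3 and -0.48 to 1.07 for Marco. Without the 1 library over the limit Spp1 was at 0.56 (SE 0.18) and Plin2 at 0.26 (SE 0.10), where 2.47% of genes were higher, and Atp6v0d2 was at 0.30 (SE 0.15) and was no longer at that level. No gene passed the adjusted test in either fit (0% in both).

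In the main test with all mice, adding oil to the dispersant was the other contrast in which a member was called. Spp1 was lower with 9527+oil than with 9527 alone, by a log2 fold change of -1.37 (SE 0.23, adjusted p = 0.0270), and it was 1 of 88 genes called (0.579%). In males the 9527+oil mice stood at 27.2, 20.5 and 32.5 CPM, all below the 55.3 to 80.8 CPM of the 9527 mice. In females they stood at 45.6, 33.8 and 36.7 CPM, below 61.2 CPM, the lowest 9527 mouse. The 9527 mice in this contrast are those compared with saline, so both results share them. Atp6v0d2 had a log2 fold change of -1.27 (SE 0.46) and Cd68 of -0.35 (SE 0.16), so that 3 members were lower at an unadjusted p under 0.05, where 8.76% of all genes were. The Spp1 call was lost when any 1 of 9 of the 12 mice was left out. It held without female 9527 mouse 11, the library over the mitochondrial limit, without female 9527 mouse 10 and without male 9527 mouse 12.

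Without that library, 4 members were called, among 1050 genes (6.82%). They were Spp1 at -1.17 (SE 0.16, adjusted p = 0.00358), Atp6v0d2 at -0.63 (SE 0.13, adjusted p = 0.0172), Trem2 at -0.83 (SE 0.21, adjusted p = 0.0385) and Lgals3 at -0.61 (SE 0.16, adjusted p = 0.0435). The size of the Atp6v0d2 difference depended on that library, at -1.27 with it and -0.63 without it on the log2 scale. For 9500+oil against 9500, Lgals3 was the 1 member lower at an unadjusted p under 0.05, at -0.56 (SE 0.25), where 1.37% of genes were. Without the library over the limit Lgals3 was at -0.43 (SE 0.22) and no longer at that level, and Spp1, at -0.57 (SE 0.19), was, where 2.07% of genes were. No gene passed the adjusted test in either fit (0% in both).

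**Figure D4:**
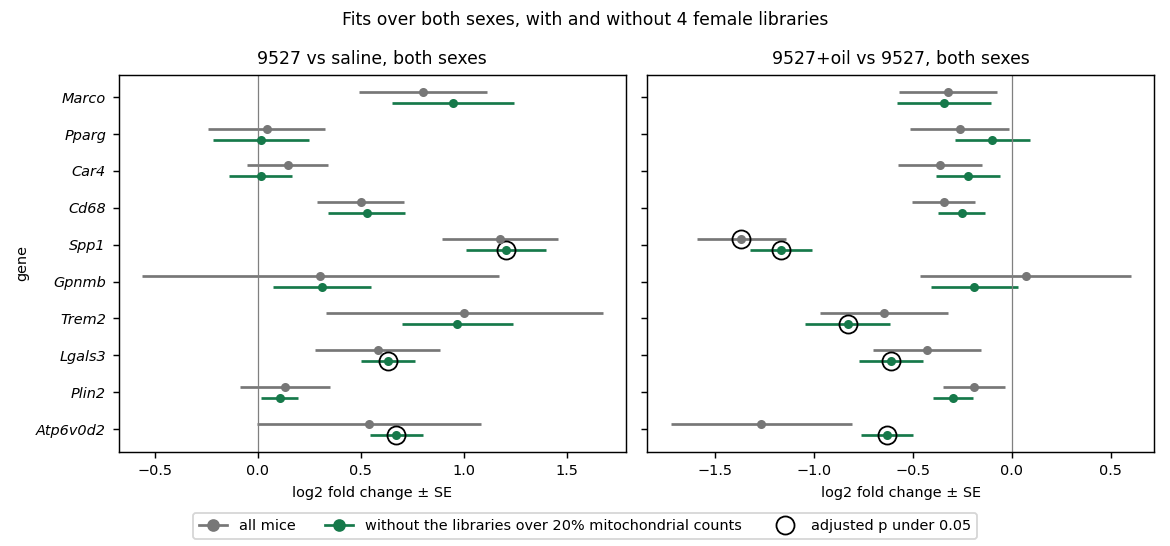
Log2 fold change with its SE for the 10 genes in 9527 against saline and in 9527+oil against 9527, both sexes with sex as a term, with all mice in grey and without the libraries over 20% mitochondrial counts in green, and circles at an adjusted p under 0.05. Spp1 is the member called with all mice, in the right panel, and the error bars of Gpnmb, Trem2 and Atp6v0d2 shorten without those libraries.

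The sexes were set against each other by an interaction term for each treatment, males minus females. Under oil the interaction was 2.31 for Marco (SE 0.56) and 1.72 for Cd68 (SE 0.38) on the log2 scale, since Cd68 was at 62.9, 91.9 and 67.5 CPM in female oil mice against 81.9 to 144.2 CPM in female saline mice. The female and male differences of Cd68 thus had opposite signs, -0.77 (SE 0.35) and 1.00 (SE 0.16). Members with a positive interaction at an unadjusted p under 0.05 numbered 2 with oil, 1 with 9500 (Spp1), 1 with 9527 (Marco, 1.32, SE 0.49), 1 with 9500+oil (Cd68) and 3 with 9527+oil (Marco, Cd68 and Spp1), where 1.07%, 0.493%, 0.157%, 0.274% and 2.13% of all genes did. No gene passed the adjusted test in any of the 5 (0% in each), so these values show neither a difference between the 2 experiments nor its absence.

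The members at that level changed when the 4 libraries were left out. Under oil they were Marco (2.29, SE 0.60), Cd68 (1.56, SE 0.38) and Trem2 (1.64, SE 0.51), where 3.92% of all genes had a positive interaction. Under 9500 it was Gpnmb (0.66, SE 0.29) in place of Spp1, where 1.08% did. Under 9527 they were Marco (1.27, SE 0.48), Cd68 (0.75, SE 0.32) and Spp1 (0.98, SE 0.27), where 1.49% did. No member was at that level under 9500+oil, where 1.41% of genes were. Under 9527+oil they were Marco (1.81, SE 0.49), Cd68 (0.70, SE 0.28), Spp1 (0.61, SE 0.25) and Gpnmb (0.61, SE 0.23), where 4.19% did. The adjusted test was passed by 1 gene for oil (0.00642%) and 1 for 9527+oil (0.00640%), neither of them a member, and by 0% for the other 3 treatments. The interaction of Atp6v0d2 under 9500, at an unadjusted p under 0.05 in neither fit, went from 1.29 (SE 0.86) to -0.20 (SE 0.27).

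The genes around the members were described from 24 lists of pathway and cell type genes, none of which holds a member. Several lists overlap, so that a gene can be counted in more than 1. Msr1, for example, is in the alveolar and the lipid-laden macrophage list, and Mmp9 in the neutrophil and the osteoclast list. No gene of any list passed the adjusted test in the comparisons with all mice, and the lists were not counted in the fits without the 4 libraries. The list counts that follow are of genes at an unadjusted p under 0.05 in male 9527 mice, where 7.96% of all genes were higher and 5.78% lower. In male 9527 mice 13 of 28 tested alveolar macrophage genes had a positive and 1 a negative change at an unadjusted p under 0.05, with a list median of 0.32 on the log2 scale. F7 (coagulation factor VII) had 0.88 (adjusted p = 0.0558) and Cd200r1, an inhibitory receptor, 0.75 (adjusted p = 0.252). Interstitial macrophage and monocyte genes had 7 of 21 higher and 1 lower, with Mgl2 at 0.94 and Ms4a7 at 1.04, and lipid-laden macrophage genes 7 of 25, with the lysosomal protease Lgmn at 0.53 and the scavenger receptor Msr1 at 1.23. The summed level of the alveolar macrophage list was 2600 to 2765 CPM in male 9527 mice and 2401 to 2752 CPM in male saline mice, so the sums overlapped. That of the interstitial list also overlapped, with a median mouse at 1055 CPM with 9527 and 1168 CPM with saline.

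Direct partners and relatives of the members were examined in the same male 9527 mice. Of 22 V-ATPase subunits 2 were higher, a share near the 7.96% of all genes, and the list median was 0.01, where Atp6v0d2 itself had 0.65. Atp6v0c, of the membrane ring, had 0.35 and Atp6v1b1, an isoform of intercalated and airway cells, -0.51. Of 15 genes of TREM2 signalling none was higher or lower, with Btk at 0.48 and Trem1 at 0.05. Of 10 osteopontin receptors 2 were higher and 2 lower, with Cd44 at 0.42 and Itgb6 at 0.27. Of the MiT/TFE factors and Gpnmb relatives 1 of 6 was higher, with Tfec at 0.70 and Mitf at 0.37. Galectins had 2 of 7 higher, with Lgals2 at -0.40 and Lgals4 at -0.27 as the 2 named by rule, scavenger receptors 3 of 15 higher and 1 lower, with Olr1 at 0.66, and relatives of Marco and Cd68 4 of 7, with Lamp3 at 0.59. Carbonic anhydrases had 1 of 10 lower, Car3 at -0.59, with Car13 at 0.25.

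Lipid storage genes were read in the same mice. Of 23 lipid droplet and triglyceride genes 6 were lower, where 5.78% of all genes were, and 1 was higher, where 7.96% were, with the hypoxia-inducible droplet protein Hilpda at -0.61 and the acyl-CoA synthetase Acsl4 at 0.58 (adjusted p = 0.0558). Of 26 targets of PPARgamma and LXR 4 were higher and 2 lower, with Scd1 at 0.64. The member Plin2 had 0.12 beside them.

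Markers of other cells were counted in the male 9527 lungs in the same way, and none passed the adjusted test. All 15 aerocyte and capillary genes had a negative log2 fold change and 11 were lower at an unadjusted p under 0.05, with Kdr at -0.38 and Cdh5 at -0.24. Their summed level was 5067 to 5437 CPM against 6261 to 7103 CPM in saline mice. Car4, which capillary endothelium also expresses, was at 158.4, 204.4 and 122.7 CPM against 144.1, 166.2 and 189.1 CPM. Alveolar type 2 genes had 4 of 10 higher, with Slc34a2 at 0.34, and airway genes 1 of 8 higher and 3 lower, with Muc5b at 0.80 and Cyp2f2 at -0.38. Neutrophil genes (0 of 8 either way, S100a9 at -0.73, Mmp9 at -0.51), lymphocyte genes (0 of 8, Cd79b at -0.18) and eosinophil genes (0 of 2, Alox15 at 0.77, Ccr3 at 0.98) had no gene at that level. Dendritic cell genes had 3 of 9 higher and 1 lower, with Ccl22 at 1.41 and Xcr1 at 0.51, and osteoclast genes 2 of 6, with Ctsk at 0.96 (adjusted p = 0.0604) and Dcstamp at 2.17. Calcr, which marks osteoclasts, did not exceed 2.10 CPM in any library. Fibroblast genes had 2 of 7 higher and 1 lower, with Col1a1 at 0.45 and Col1a2 at 0.35. Heart muscle genes had 4 of 7 lower, with Actc1 at -0.65 and Tnni3 at -0.44, and adipocyte genes 2 of 6, with Adipoq at -0.995 and Retn at -0.62. The part of these shifts in the values of the 10 genes was not tested.

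In male oil mice no gene of the lists passed the adjusted test either. For the neutrophil list an unadjusted p under 0.05 with a positive change was met by 5 of its 10 tested genes, where 5.75% of all genes met it, with a list median of 0.93 on the log2 scale, and its sum was 405 to 1135 CPM against 321 to 358 CPM in saline mice. In male 9527+oil mice, where Marco was also higher, 7 of 9 tested neutrophil genes met it, where 3.54% of all genes did, with a list median of 1.54, and the sum ran from 281 to 1450 CPM and overlapped with saline. Adipocyte genes summed to 16.2 to 24.4 CPM in male oil mice against 24.8 to 48.3 CPM in saline. Heart muscle genes had 6 of 7 lower at that level, where 2.45% of all genes were, and summed to 286 to 317 CPM against 340 to 533 CPM in saline. Alveolar macrophage genes had 15 of 28 higher and 2 lower, and interstitial macrophage and monocyte genes 10 of 21 higher. Osteoclast genes, which include Mmp9 of the neutrophil list, had 3 of 5 higher, with a list median of 0.76. Their sum was 225 to 319 CPM against 168 to 206 CPM in saline. TREM2 signalling genes had 5 of 15 higher, with a sum of 917 to 1155 CPM against 788 to 908 CPM. Dendritic cell genes had 3 of 9 higher, and capillary genes 2 of 15 lower, with a sum of 6076 to 6189 CPM against 6261 to 7103 CPM. The part of these other cells or of macrophage number in the oil values was not tested.

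Each member was last set beside the genes whose levels were most like it over the 32 mice outside the 4 libraries, by Pearson correlation of log2 CPM centred within sex among 13886 genes, a description in which mice share tables and treatments. Atp6v0d2 was most like Plet1, a gene of alveolar macrophages (r = 0.92), followed by Gsap (0.85) and Ctsc (0.85). Trem2 was most like the complement genes C1qa (0.78) and C1qb (0.78), both expressed by interstitial macrophages, and Fkbp2 (0.77). Marco was most like the chemokine Ccl6 (0.75), the haem oxygenase Hmox1 (0.69) and Trem2 itself (0.68), the only member among the first 3 of another. Spp1 stood with Clu (0.83), the mitotic kinesin Kif11 (0.82) and Clcn5 (0.81), and Cd68 with Ctc1 (0.85), Slc7a8 (0.84) and Sh3bp2 (0.84). Gpnmb had no close neighbour, the nearest being the lysosomal protease Ctsd (0.55), then Zdhhc15 (0.55) and Slc44a3 (0.54). Lgals3 was most like Rplp0 (0.95), Prdx4 (0.91) and Fen1 (0.89), and Plin2 like Clec4a2 (0.88), Mcfd2 (0.86) and Psma5 (0.85). Car4 was most like Rhoa (0.88), Lamtor3 (0.87) and Gng5 (0.87), and Pparg like Ppm1e (0.88), Fam120c (0.88) and Cast (0.86). Female 9500 mouse 7, the lowest for Pparg at 0.91 CPM, was among these mice, and its weight in the Pparg correlations was not tested.

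The neighbours changed for most members when all 36 mice were used. Gpnmb then had Triap1 (0.97), Atraid (0.96) and Ap2s1 (0.96), and Trem2 had 3110082I17Rik (0.92), 5730559C18Rik (0.92) and Rcc1 (0.92). Lgals3 had Prdx4 (0.94), Hdc (0.92) and Sdf2l1 (0.91), and Plin2 had Rps12-ps3 (0.90), Psma5 (0.90) and Psmb3 (0.88). Atp6v0d2 kept Plet1 first (0.98), before Tpm3 (0.94) and Nucb2 (0.94), and Marco kept Ccl6 first (0.70), before Lcn2 (0.64) and Hnrnpf (0.62). Pparg kept Ppm1e first (0.87), before Kctd8 (0.87) and Shroom2 (0.87), Spp1 had Kif11 (0.86), Hmmr (0.83) and 2810417H13Rik (0.83), Cd68 had Cyb5r3 (0.75), Csf2rb2 (0.75) and Tuba8 (0.75), and Car4 had Pros1 (0.86), Armc1 (0.86) and Igfbp7 (0.85).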

How the data were processed

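Lung RNA of 36 mice was sequenced, and the authors deposited 1 table of estimated counts per gene for females and 1 for males, made with Salmon against GRCm38 transcripts per the labels and methods; the Salmon version is not given in the sources used here. All values were whole numbers. Rows sharing a name, 4 per table, were left out (0.0103% and 0.0128% of the counts), leaving 18116 and 18291 genes. Fits of both sexes used the 17716 shared names. Counts were filtered with filterByExpr, scaled by TMM and tested with edgeR 4.0.16 (quasi-likelihood F-test, R 4.3.3), Benjamini-Hochberg over all genes tested, threshold 0.05. Single groups held 3 mice, and 3 against 3 allow no exact p below 0.1, so exact permutation tests were run over both sexes. Standard errors were taken from the F statistic, and 95% intervals from its degrees of freedom. Gene models were those of GENCODE M21, and 17834 of 18691 names matched. Named list genes were the 2 with the smallest p in 9527 against saline over both sexes, members left out, plus any past the adjusted test, and likeness was given for the 3 most alike genes with a mean of at least 1 CPM, from log2 CPM with a prior count of 2. Of the genes this rule names, some are not reported here. The scripts were tested on data with known fold changes. DESeq2 1.42.0, limma 3.58.1 and the other alternatives of the closing section were run beside the main test. The members and lists were chosen with earlier results of these data known. The p-values measure the spread between mice of 1 experiment per sex.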

Additional observations from a re-analysis of the deposited data

How the results depend on the processing

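No direction of a member's log2 fold change reversed among those at an unadjusted p under 0.05, over all alternatives and with each mouse left out. Alternatives were other tests (DESeq2, limma voom with quality weights), size factors, filters on low counts, all 6 groups in 1 fit, libraries or mitochondrial genes left out, and no sex term. The voom weights were added after seeing the data. The number of members called moved as follows. With DESeq2 it was 2 rather than 0 for oil, 1 for 9500, 5 rather than 2 for 9527, 1 for 9500+oil and 2 for 9527+oil in males, 1 for 9527 over both sexes and 1 for the oil interaction. DESeq2 called 572 genes in male 9527 mice where edgeR called 17, and the cause was not tested. For 9527 over both sexes it was 1 with all 6 groups in 1 fit (Spp1), 3 without the libraries over 20% mitochondrial counts and 5 with voom weights. For the oil interaction it was 1 with voom weights (Cd68). For 9527+oil against 9527 it was 4 without those libraries, 4 with voom weights and 0 without the sex term, where Spp1 had an adjusted p of 0.0790. With 1 mouse left out it ran from 0 to 2 for 9527 in males and from 0 to 4 for 9527+oil against 9527, and it was 0 throughout in the other 21 comparisons. Mean levels under plain or mitochondria-free scaling moved by less than 1 SD in 217 of 240 cases. No paired analysis was possible because the groups compared share no mouse number, and the numbers that females and males share name different animals.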
